A study of Mus musculus with 2 samples.

Results

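Clusters of macroH2A1 regions, stretches of the genome where regions follow each other closely, were examined in mouse embryonic stem cells. A region was taken as clustered when its start lay at most 50 kb from the start of the previous or the next region on the same chromosome. After 2 repeated rows were dropped, 531 of the 2558 distinct regions met this rule (20.8%, exact 95% binomial interval 19.2 to 22.4%), and the other 2027 were isolated. The positions of the regions chose the members, so numbers and gaps are given as a description and none was tested. Chromatin came from untreated cells of the established line E14, which were kept undifferentiated in serum medium with leukemia inhibitory factor. It was precipitated with an antibody against macroH2A1 or with non-specific IgG, and the DNA was sequenced. There was 1 library of each kind. The deposited list of macroH2A1 regions is analysed here, and values of the IgG library were not analysed here. The list holds no read count or enrichment, so the depth behind a region is unknown. All region coordinates are those of the deposited list, on the mouse build mm9. Intervals cover counting error only and treat regions as independent, which neighbours of 1 library need not be.

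MacroH2A1 is a form of histone H2A that carries a large globular macrodomain at its C-terminal end. It replaces H2A in part of the nucleosomes, is concentrated on the inactive X chromosome of female cells and at many silent developmental genes, and often covers broad stretches of chromatin. Its level rises as embryonic stem cells differentiate, and it is known to hinder the return of differentiated cells to pluripotency. In a peak list, a broad stretch of enrichment can appear either as 1 wide region or as several separate ones.

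The promoters of 4 genes whose start was covered by a clustered region, or lay within 1 kb of one, are shown. RefSeq lists 1 start for each. The 4 are a selection, since other genes with a symbol also qualified by distance and are not shown. These are Selplg, whose start was covered, BC029684 (0.057 kb), Dnahc10 (0.265 kb), Wnt8a (0.383 kb) and Spink2 (0.678 kb). Spink2 has 3 listed starts. Of the 350 clustered regions at genes with a symbol, 9 lay within 1 kb of the start (2.57%, 1.18 to 4.83%). Among isolated regions at such genes it was 59 of 1317 (4.48%, 3.43 to 5.74%). The 250 bases before the gene start are printed as RefSeq gives them for build GRCm38.p6, with each CG dinucleotide, the site of DNA methylation, in capitals. They are those of Insc (chr7:114745516-114745765, plus strand), Tbx4 (chr11:85896515-85896764, plus strand), H2-DMb1 (chr17:34152941-34153190, plus strand) and Dkk1 (chr19:30549497-30549746, minus strand).
Insc: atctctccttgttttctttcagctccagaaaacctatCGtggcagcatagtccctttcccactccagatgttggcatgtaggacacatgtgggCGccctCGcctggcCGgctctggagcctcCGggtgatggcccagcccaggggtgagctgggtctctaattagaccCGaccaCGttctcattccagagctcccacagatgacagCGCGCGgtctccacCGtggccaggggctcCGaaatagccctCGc
Tbx4: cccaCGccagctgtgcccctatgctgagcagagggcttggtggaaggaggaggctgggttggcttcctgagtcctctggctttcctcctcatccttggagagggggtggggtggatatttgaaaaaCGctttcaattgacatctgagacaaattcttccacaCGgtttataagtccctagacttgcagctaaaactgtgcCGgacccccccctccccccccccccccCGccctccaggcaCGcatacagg
H2-DMb1: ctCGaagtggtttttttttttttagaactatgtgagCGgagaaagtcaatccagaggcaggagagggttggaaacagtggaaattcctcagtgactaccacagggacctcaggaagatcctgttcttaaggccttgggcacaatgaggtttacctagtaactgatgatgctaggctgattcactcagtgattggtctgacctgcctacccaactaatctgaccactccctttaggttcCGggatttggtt
Dkk1: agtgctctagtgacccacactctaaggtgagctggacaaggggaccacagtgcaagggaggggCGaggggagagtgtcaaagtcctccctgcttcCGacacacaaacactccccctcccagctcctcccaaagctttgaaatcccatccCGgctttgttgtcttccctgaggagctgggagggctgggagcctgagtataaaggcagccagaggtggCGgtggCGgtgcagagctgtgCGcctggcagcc
The Insc promoter held 13 CG dinucleotides, those of Tbx4 and Dkk1 6 each, and that of H2-DMb1 3, beside a median of 6 over the first listed promoter of 26794 genes. The letters TATAAA, read on either strand, occurred in the windows of Tbx4 and Dkk1 and in 13% of all such windows. CCAAT, read on either strand, occurred in the window of H2-DMb1 and in 34.7% of all windows, and it shares no window with TATAAA among these 4.

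The 531 clustered regions formed 232 clusters. Pairs made up most of them, with 189 clusters of 2 regions (81.5%) that held 71.2% of the clustered regions. A further 29 clusters had 3 regions, 9 had 4, 2 had 5, 2 had 6 and 1 had 8. From its first to its last base a cluster spanned 28.3 kb at the median, with extremes of 3.65 and 135 kb. The regions themselves covered a median of 12.1% of that span, so most of a typical cluster lay between regions. All 232 spans added up to 7.21 Mb.

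Within clusters the starts of neighbouring regions differed by a median of 22.4 kb over 299 pairs, and the quartiles were 9.95 and 35.5 kb. Close pairs were the more frequent ones. Per 10 kb of distance there were 80 pairs below 5 kb and 72 from 5 to 10 kb, against 51 from 40 to 50 kb and 33 from 50 to 60 kb, the first interval beyond the limit. No regions overlapped, and the smallest stretch between the edges of 2 regions was 99 bp. In 11 pairs that stretch was under 1 kb and in 61 it was under 5 kb. Over all 2538 neighbouring pairs on the 20 chromosomes the median difference of starts was 491 kb.

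**Figure D1:**
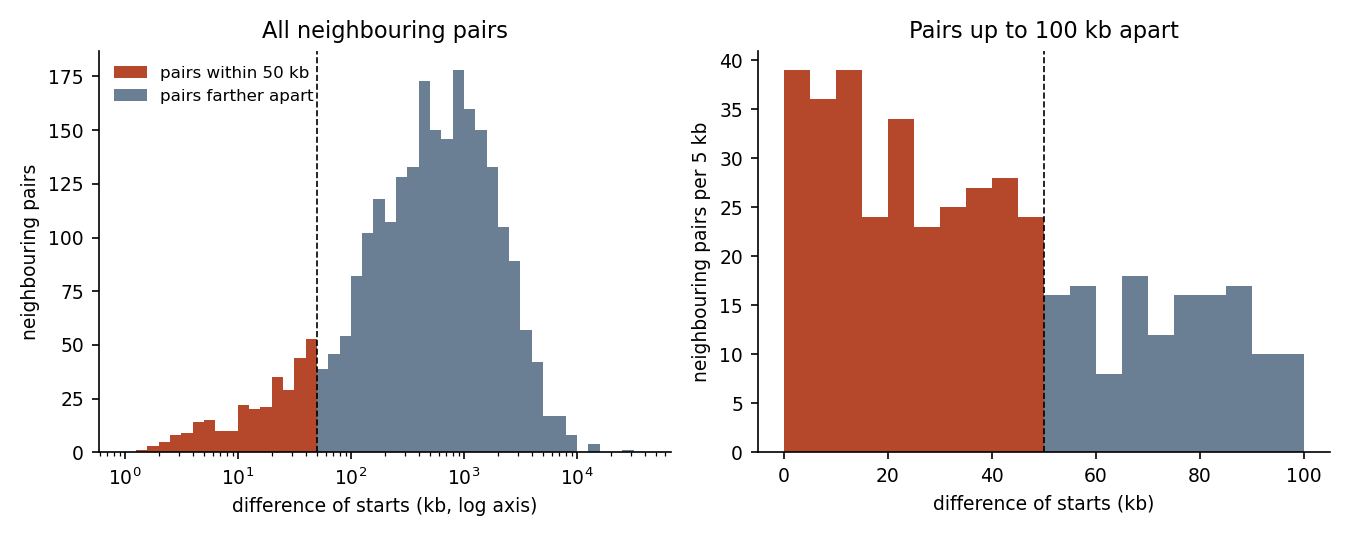
Difference between the starts of neighbouring macroH2A1 regions in kb, for all pairs on a log axis (left) and for pairs up to 100 kb apart in steps of 5 kb (right), with bars as numbers of pairs. Pairs within 50 kb (red, left of the dashed line) form the low tail of a distribution with a median of 491 kb, and within that tail the nearest distances hold the most pairs.

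Of the 5 closest pairs, 3 were assigned to genes without a symbol. The starts differed by 1.55 kb near ENSMUSG00000084548 and by 1.7 kb near ENSMUSG00000077507, both on chromosome 5. They differed by 1.8 kb near ENSMUSG00000077361 on chromosome 10, by 1.95 kb upstream of Sez6l on chromosome 5 and by 2.05 kb upstream of Dkk1 on chromosome 19. The near-contiguous regions at Sez6l and at ENSMUSG00000077361 were separated by 199 bp each. At the other end of the rule, the 5 pairs just inside the limit differed by 49.2 to 49.6 kb and included both regions of Apod, an apolipoprotein gene. The 5 pairs just outside differed by 51 to 52.4 kb, among them a pair between the neighbouring genes Tmem174 and Tmem171 and a pair assigned to Xrcc6bp1.

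Large clusters were the next level of description. There were 14 clusters with 4 or more regions, which held 66 regions, and 7 of the 14 lay on chromosome 5. The longest series had 8 regions between 119753550 and 119856050 of chromosome 5, all assigned to ENSMUSG00000084548. The widths along it were 1151, 1751, 2051, 1851, 2201, 1651, 1401 and 2101 bp. Its regions came in close pairs at its low end, where starts differed by 1.55 and 2.45 kb, and at its high end, where they differed by 5.15 kb. The middle of the series was sparser, with steps of 20.1, 34.8 and 21.6 kb.

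A cluster of 6 regions spanned 135 kb of chromosome 4, from 139403000 to 139537500, and had the greatest span and the second greatest summed width, 12856 bp. The 2 regions at its low end lay 14.1 and 33.9 kb upstream of Pax7, a transcription factor of muscle stem cells and neural crest. The next 3, of 3051, 1401 and 3001 bp, were assigned to ENSMUSG00000080658, and the last, of 2251 bp, lay 11.3 kb upstream of Klhdc7a. Of the 5 widest clustered regions in the list, 2 lay in this cluster, at 139458800 to 139461850 and at 139494600 to 139497600. The 2 regions at Pax7 were narrower, at 1401 and 1751 bp.

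Sez6l, a gene for a neuronal membrane protein, had a cluster of 6 regions over 111 kb of chromosome 5. One region of 1601 bp lay inside the gene, 20.1 kb past its start, and the other 5 lay 18.9, 54.2, 56.1, 64.6 and 86.9 kb upstream. Elfn1, which encodes a synaptic protein with leucine-rich repeats, had the densest of the clusters with 5 or more regions. Its 5 regions all lay inside the gene, 15.7 to 45.3 kb past the start, and covered 29.0% of a 31.7 kb span. Regions of 1901, 2101, 1951 and 2051 bp followed a first one of 1201 bp. The other cluster of 5, on chromosome 9, was split between 5830454E08Rik with 3 regions and ENSMUSG00000064397 with 2, all of them downstream.

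Clusters of 4 differed in where they lay relative to the gene. At Tbx5, a transcription factor of heart and forelimb, 3 regions of 1551 to 1651 bp lay inside the gene at 3.08, 28.9 and 36.6 kb from the start. The fourth, past the gene end at 54.7 kb, was wider, at 2951 bp. At Uncx, a homeobox factor needed for vertebrae, 1 region lay 16.2 kb upstream and 3 lay 21.9, 42.1 and 61.7 kb from the start on the downstream side. Eln, the gene of elastin in elastic fibres, had 1 region inside, at 20.7 kb, and 3 upstream, at 14.9, 33.3 and 36.4 kb. Arl15, a gene for a small GTPase of the ARF-like family, had 3 regions 43.1 to 54.8 kb upstream, next to 1 region upstream of Hspb3, a small heat shock protein gene.

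Dkk1 encodes a secreted inhibitor of Wnt signalling, and its promoter is among those printed above. Its 2 regions lay 0.887 and 2.94 kb upstream of the start, with widths of 1601 and 1251 bp, and belonged to a cluster of 4 whose other regions were assigned to ENSMUSG00000058816. Fkbp5, a co-chaperone gene of the glucocorticoid receptor, had 2 regions inside the gene, followed by 1 upstream of Gm749 and 1 upstream of Clps, the pancreatic colipase gene. The 4 regions at Gm5420 on chromosome 10, of 1101 to 1401 bp, were all narrow and spread over 107 kb. A cluster of 4 on chromosome 18 lay in a gene-poor stretch, 782 to 844 kb from the start of the gene it was assigned to, ENSMUSG00000077305. In the last of these clusters, on chromosome 5, 2 close pairs lay 42.8 kb apart and were assigned to ENSMUSG00000077816 and ENSMUSG00000072591.

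**Figure D2:**
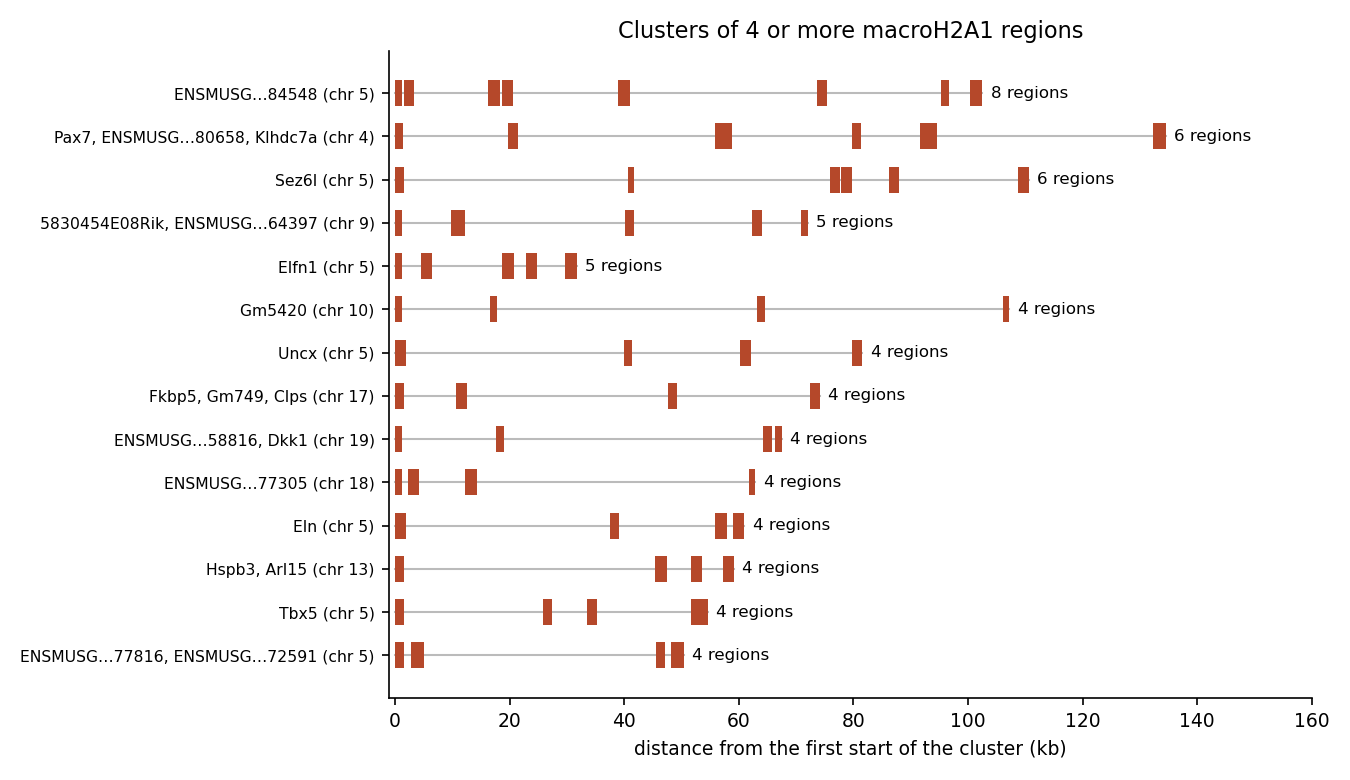
The 14 clusters of 4 or more regions, each drawn from its first start (0 kb) to its last end in kb, with regions as red bars to scale and the assigned genes and chromosome at the left. The cluster at Elfn1 is the shortest, at 31.7 kb, and the cluster from Pax7 to Klhdc7a the longest, at 135 kb.

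Neighbouring regions within 50 kb of each other usually shared an assigned gene. Of the 299 pairs within 50 kb, 229 were assigned to the same gene (76.6%, 71.4 to 81.3%), against 197 of the 2239 pairs farther apart (8.8%, 7.66 to 10%). Assignment went by the nearest gene start, so close regions are bound to share a gene more often than distant ones, and no test was made. All regions of 165 of the 232 clusters (71.1%, 64.8 to 76.9%) belonged to 1 gene, and 107 of these clusters were at a gene with a symbol. For 73 clusters all regions lay upstream of that gene, for 48 all lay downstream, for 11 all lay inside, and 33 combined classes. The start of the gene lay between the midpoints of the regions in 26 clusters (11.2%, 7.45 to 16%).

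Regions of 3 assigned genes met in 3 clusters, the highest number of genes in any cluster. Besides those at Pax7 and at Fkbp5, this was a cluster of 3 regions on chromosome 17 from 29188000 to 29258250. Its middle region, of 2151 bp, lay 2.37 kb upstream of Cdkn1a, the cell cycle inhibitor p21. The region on 1 side, of 1701 bp, was downstream of Sfrs3, a splicing factor gene, and that on the other, of 2151 bp, upstream of Rab44, a gene of the Rab GTPase family.

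Clustered regions were wider than isolated ones by a small amount. The median width was 1651 bp (95% interval 1601 to 1701 bp, n = 531) for clustered regions and 1551 bp (1501 to 1551 bp, n = 2027) for isolated regions. Widths over 2000 bp were found for 21.8% of clustered regions (18.4 to 25.6%) and 13.3% of isolated regions (11.9 to 14.9%). Widths come in steps of 50 bp and from the same peak calls as the positions, so this difference is a description and was not tested. By cluster size the median was 1601 bp in pairs, 1701 bp in clusters of 3 and 1676 bp in clusters of 4 or more, and the intervals of these 3 overlapped. The 146 regions with a neighbour within 10 kb had a median of 1751 bp (1651 to 1801 bp), against 1601 bp (1551 to 1651 bp) for the 385 clustered regions without one. Within a pair the widths were nearly unrelated (Spearman's rho = 0.08 over 299 pairs of 1 library, some of which share a region).

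The width difference varied with the assigned gene. Regions assigned to genes without a symbol had medians of 1701 bp (1651 to 1801 bp, n = 181) when clustered and 1501 bp (1451 to 1551 bp, n = 710) when isolated. At genes with a symbol the medians were 1601 bp (1551 to 1651 bp, n = 350) for clustered and 1551 bp (1551 to 1601 bp, n = 1317) for isolated regions, whose intervals overlap. Whether the 2 kinds of gene differ in this was not tested. On chromosome 5 the medians were 1701 bp for clustered and 1551 bp for isolated regions. On the other chromosomes they were 1601 bp (1551 to 1701 bp) and 1551 bp (1501 to 1551 bp).

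The widest clustered region, of 4351 bp, lay in the body of Nt5e, the gene of the ectonucleotidase CD73 (chromosome 9), and was paired with a region of 1251 bp 7.52 kb upstream of the gene. The next, of 4151 bp, lay downstream of Myl10, a myosin light chain gene, and its partner on chromosome 5 measured 1451 bp. In both pairs the neighbour of the very wide region was narrower than the clustered median. The 5 narrowest that come first by position, at the minimum of 1051 bp, were assigned to Inpp4a, ENSMUSG00000067581, Serpini1, Rngtt and Klhl8.

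**Figure D3:**
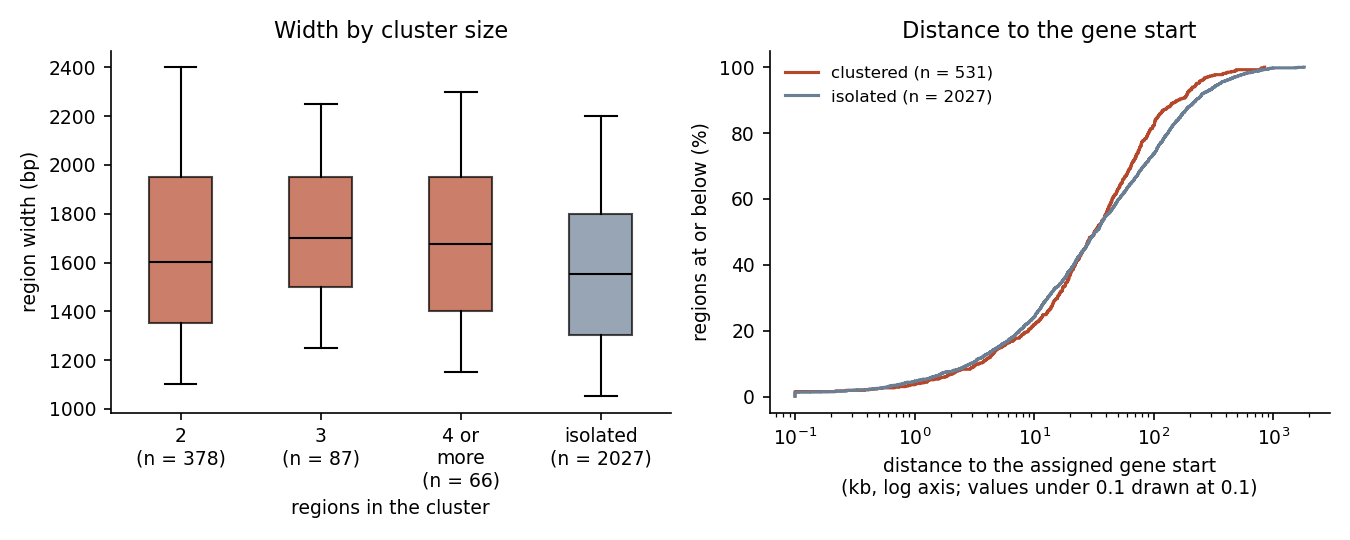
Left, region width in bp for clusters of 2, 3 and 4 or more regions and for isolated regions (box, quartiles; line, median; whiskers, 5th and 95th percentiles). Right, cumulative percentage of clustered and isolated regions by distance to the assigned gene start in kb on a log axis, where the curves cross near the common median and part beyond it.

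The distance to the gene start had about the same median in both sets. It was 32 kb (27.3 to 38.6 kb) for clustered and 32.4 kb (29.4 to 36 kb) for isolated regions, but the spread differed. The quartiles were 12.6 and 75.4 kb for clustered regions and 10.3 and 106 kb for isolated regions. More than 100 kb from the start lay 17.7% of clustered regions (14.5 to 21.2%) and 26.3% of isolated regions (24.4 to 28.3%). Within 5 kb the shares were 14.7% (11.8 to 18%) and 15% (13.5 to 16.6%). By the authors' classes, 49.5% of clustered and 51.9% of isolated regions were upstream, 36.9% and 31.4% downstream, and 11.9% and 14.8% inside their gene. Genes without a symbol took 34.1% of clustered regions (30.1 to 38.3%) and 35% of isolated regions (32.9 to 37.1%). The difference was -0.941 percentage points (95% interval -5.49 to 3.75). When clusters were formed anew from the 1241 regions above the median width alone, 191 were clustered. The share was then 10.3 points higher in clustered than in isolated regions (2.63 to 18.2).

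A gene start was covered by 6 clustered regions (1.13%, 0.416 to 2.44%) and by 24 isolated regions (1.18%, 0.76 to 1.76%). Symbols were given for the genes of 2 of the 6. One region covered the start of Insc, the mouse counterpart of a fly adaptor protein that orients the mitotic spindle, and its partner lay 6.75 kb upstream of Calcb, a calcitonin gene-related peptide gene. The other covered the start of Selplg, the gene of a ligand of selectins on leukocytes, and was 43.3 kb from a region assigned to Tmem119, a gene for a membrane protein. Clustered regions within 1 kb of a start that they did not cover included those of Wnt8a (0.383 kb), H2-DMb1 (0.486 kb), Tbx4 (0.526 kb) and Dkk1. H2-DMb1, which encodes a chaperone chain for the loading of MHC class II molecules, was named after its value was seen.

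Genes of development were next considered as groups. Of 1409 assigned genes with a symbol, 198 (14.1%) had a clustered region, which is the background for the lists that follow. The share over regions with a symbol was 21% (350 of 1667). The lists were drawn up with earlier results of these data known, and a gene with several regions has more chance of a close pair, so shares are set side by side without a test. Of 199 genes with a symbol and at least 2 regions, 123 had clustered ones.

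Developmental transcription factors had a clustered region at 12 of the 33 list members with any region (36.4%), and 25 of their 50 regions were clustered. Tbx5 and Uncx came first with 4 each. Hoxb13, the terminal gene of its Hox cluster, had 2 regions on either side of the gene, 1.45 kb upstream and 6.6 kb downstream of the start, with widths of 2351 and 1751 bp. Sox11, a factor of neural progenitors, was flanked too, 17.8 kb upstream and 27.7 kb downstream. Both regions of Lhx5, a forebrain LIM-homeobox factor, lay upstream (23.2 and 48.7 kb). Otx2, a regulator of forebrain development and of the exit from naive pluripotency, had both of its regions downstream, at 16.5 and 42 kb. Mn1, a transcriptional coregulator of palate development (61 and 66.6 kb), and Sall1, a zinc finger factor of kidney development (65.7 and 102 kb), also had theirs downstream. Tbx4, a hindlimb factor, had 1 clustered region, 0.526 kb from its start.

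Genes of developmental signalling had a clustered region at 7 of 18 members with a region (38.9%), and 12 of 25 regions were clustered. Among the ligands, the regions of Wnt8a lay 0.383 kb past the start and 4.47 kb upstream, and those of Wnt7b lay 16.5 and 37.8 kb upstream. Bmp7, a bone morphogenetic protein of kidney and eye development, had its pair 97.2 and 104 kb away on the downstream side. The Wnt receptor gene Fzd7 had regions 50.4 and 75.2 kb upstream. Lefty1 and Lefty2, which encode inhibitors of Nodal and lie next to each other on chromosome 1, shared 1 cluster. The region of Lefty2, of 1751 bp, lay inside the gene, and that of Lefty1, of 2251 bp, lay 3.24 kb upstream, 34.2 kb from the first by starts. Dkk1 was the other inhibitor.

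Pluripotency genes had a clustered region at 4 of 11 members with a region (36.4%). They were Lefty1, Lefty2, Otx2 and Tcf7l1, of which the first 3 also stand in the lists above. Tcf7l1, a repressor of Wnt target genes in embryonic stem cells, had regions of 1551 and 2451 bp, 3.15 and 30.5 kb upstream. The other 7 members with a region had isolated regions alone.

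**Figure D4:**
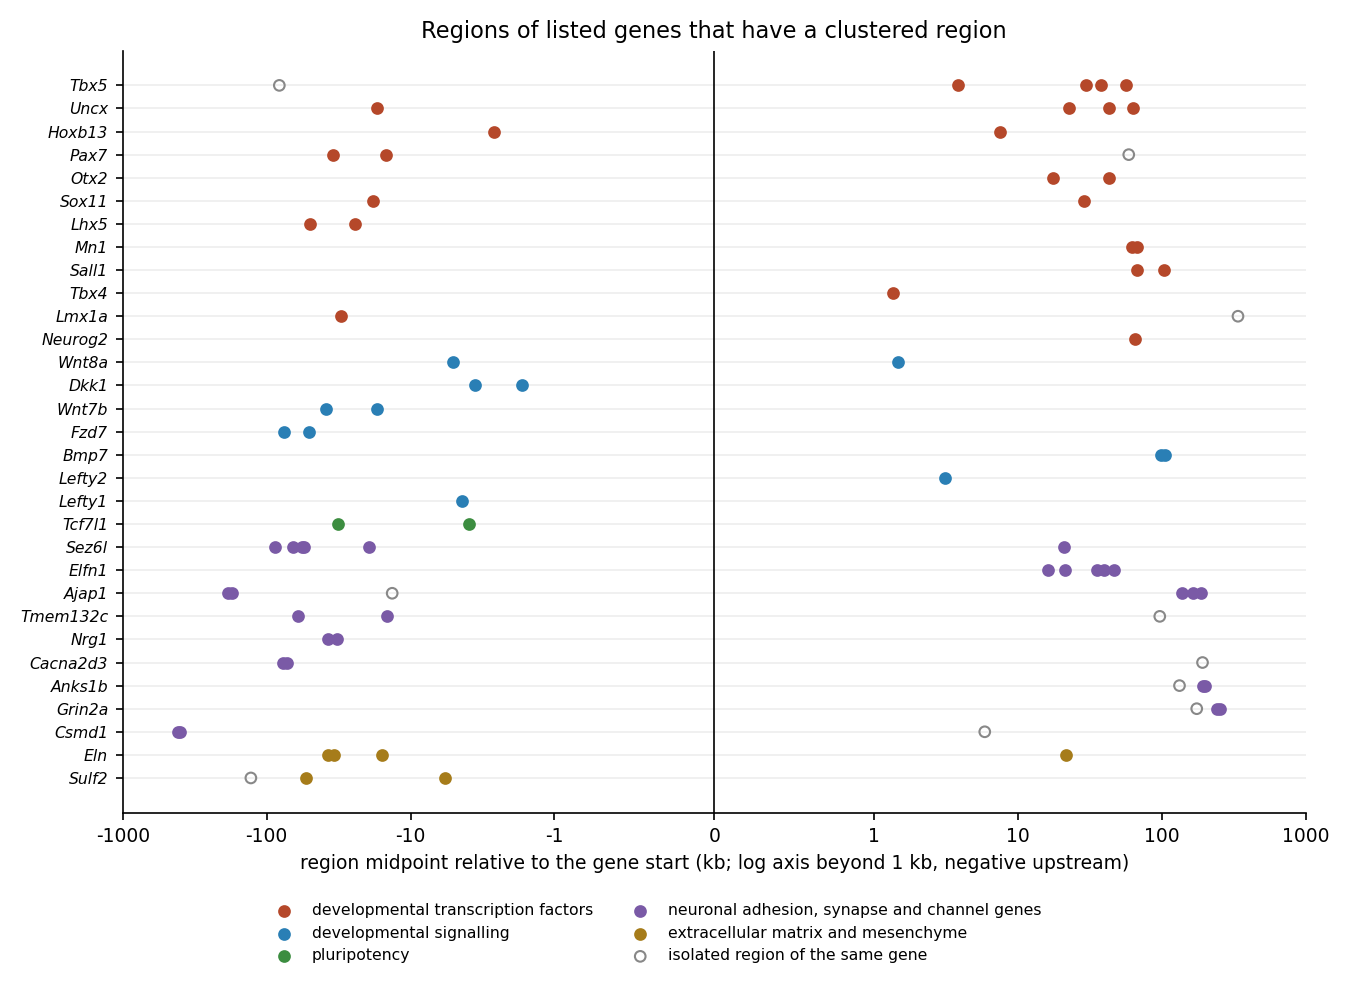
Position of each region's midpoint relative to the start of its assigned gene in kb (negative upstream, log axis beyond 1 kb), for list members with a clustered region. Filled points are clustered regions, coloured by list with genes of several lists drawn once, and open points are isolated regions of the same gene. Regions of Elfn1, Grin2a and Anks1b lie on the right of the start, and most of those of Sez6l on the left.

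The list of neuronal adhesion, synapse and channel genes had 9 of 30 members with a region in clusters (30%), and 28 of 60 regions were clustered. Sez6l had 6 clustered regions, and Elfn1 and Ajap1, a junction protein gene, had 5 each, those of Ajap1 in 2 clusters. The 3 downstream regions of Ajap1 were 137, 164 and 187 kb from the start, and its 2 upstream ones 173 and 185 kb. The pairs of Anks1b, a postsynaptic scaffold gene (192 and 197 kb), and of Grin2a, a subunit of the NMDA receptor (240 and 251 kb), lay deep inside these long genes. The pairs of Nrg1, a neuregulin ligand (31.5 and 36.7 kb), Cacna2d3, a calcium channel subunit (71.5 and 76.1 kb), and Csmd1 (401 and 413 kb) lay upstream. So did the pair of Tmem132c, at 13.4 and 59.9 kb.

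In the list of matrix and mesenchyme genes, 2 of 7 members with a region had clustered ones, Eln and Sulf2. Sulf2, a sulfatase that edits heparan sulfate, had 3 regions, of which the 2 clustered ones lay 4.59 and 52 kb upstream. Olfactory and vomeronasal receptor genes lie in large gene arrays, and none of the 21 with a region had a clustered one. That was 0 of 22 regions, which allows a share of up to 13.6%. Among Zfp genes it was 1 of 17, Zfp217, with 1 of 20 regions clustered (5%).

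The chromosomes differed in the share of regions that were clustered. Chromosome 5 was highest, with 89 of 250 regions in 31 clusters (35.6%, 29.7 to 41.9%). On the other chromosomes together the share was 19.2% (17.6 to 20.8%). Chromosome 8 followed with 49 of 177 (27.7%, 21.2 to 34.9%), but its largest cluster had 3 regions. Chromosomes 3 (16 of 152, 10.5%) and 7 (12 of 108, 11.1%) were lowest among the autosomes and had no cluster larger than a pair. On chromosome X none of 26 regions was clustered, which allows a share of up to 11.5% by the limit of 3 counts, and of up to 13.2% by the exact 95% interval drawn in the plot by chromosome. The median difference between neighbouring starts was 247 kb on chromosome 5, 347 kb on chromosome 8, 765 kb on chromosome 3 and 3140 kb on chromosome X. The 2 measures did not run in the same order throughout: chromosome 4, with a median of 439 kb, had 14.4% of its regions clustered (9.66 to 20.4%), and chromosome 14, with 623 kb, had 26.7% (17.8 to 37.4%). The part of density in these shares was not tested.

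**Figure D5:**
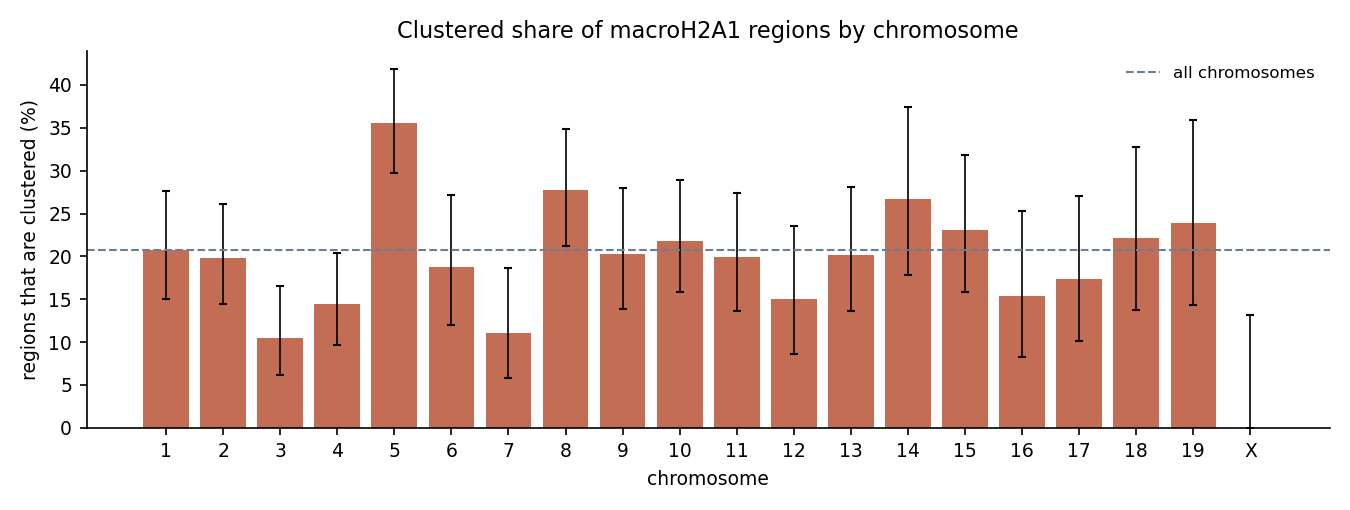
Percentage of macroH2A1 regions that are clustered on each chromosome, with exact 95% binomial intervals as error bars and the share over all chromosomes (20.8%) as a dashed line. Chromosome 5 stands at 35.6% and chromosome X at 0%.

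Some clusters outside the lists, named after their values were seen, were compact. At Cmas, the gene of an enzyme that activates sialic acid, 3 regions of 2051, 1951 and 2601 bp lay 4.68 to 19.4 kb upstream and covered 39.3% of a 16.8 kb span. Near Tnfrsf19, a receptor gene of the tumour necrosis factor family, 3 regions of 1751, 2701 and 1851 bp lay 88.3 to 101 kb from the start and covered 44.2% of 14.3 kb. The most compact cluster of 3, at ENSMUSG00000077361, covered 70.4% of 7.6 kb.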

How the data were processed

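The deposited table lists macroH2A1 regions with their chromosome, start, end, width and assigned gene. Reads were mapped with Bowtie to NCBIM37 (mm9), per the submitters' processing notes. Region names begin with CCAT, a peak caller, and the columns are those of ChIPpeakAnno, per the file headers. The authors assigned regions by nearest gene start. Neither the threshold of the caller nor its control is stated in the labels. Of 2560 rows, 2 repeated a region and were dropped.

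Regions were sorted by start within each chromosome and joined while the next start lay within 50 kb (Python 3.11.15, pandas 2.3.3). The distance to a gene start was recomputed to the nearest base of the region. Shares carry exact 95% binomial intervals and medians carry order-statistic 95% intervals (SciPy 1.17.1). A count of 0 allows up to 3 counts of the total. With 1 library, no test was run and no p-value is given. The joining step was tested on simulated data.

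Members, gene lists and the rule for named genes were chosen with earlier results of these data known. Named were genes of clusters with 4 or more regions, of the widest, closest and most mixed clusters, of regions near the limit or over a gene start, and up to 10 list members each. Of the genes of the widest regions, 1 is not reported here. Promoters came from RefSeq (GRCm38.p6). The printed ones were matched by symbol and chromosome, and synonyms were used only in matching whole gene sets. Since 145 of 198 clustered genes matched, fewer than needed, a comparison of promoters between gene sets was void and is not given.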

Additional observations from a re-analysis of the deposited data

How the results depend on the processing

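Of 47 values recomputed under 6 other settings, 30 stayed within 1.5 times the count or within the 95% interval and 17 moved. With starts within 25 kb there were 323 clustered regions (12.6% of all) in 150 clusters, of which 88% were assigned to 1 gene. Within 100 kb, 29.8% of regions were clustered and 58.8% of clusters had 1 gene. Without chromosome 5 the clustered share was 19.2%. Among regions with a symbol there were 326 clustered regions in 144 clusters, 78.5% of them at 1 gene. Among the 1241 regions wider than the median there were 191 (15.4%) in 84 clusters, 78.6% at 1 gene. In that setting the clustered minus isolated difference in median distance was 9.69 kb (95% interval -0.861 to 18.1 kb). It was -0.458 kb (-6.3 to 6.83 kb) with all regions. The difference inside the gene was -6.67 percentage points (-10.6 to -1.58), against -2.94 (-6.02 to 0.479) with all regions. In genes without a symbol it was 10.3 points (2.63 to 18.2), against -0.941 (-5.49 to 3.75). The cause was not tested. Fewer regions enter the settings by chromosome, symbol and width by construction. The width difference of 100 bp (95% interval 50 to 171 bp) ranged from 50 to 150 bp over the 6 settings. It was 50 bp both without chromosome 5, with an interval from 0 to 162 bp, and among regions with a symbol, with an interval from -20.7 to 150 bp. No paired analysis was possible because there is 1 library and no replicate. The unknown depth limits any statement on a stretch without a region.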
